A study of Mus musculus with 6 samples.

Results

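New lncRNA records that share sequence were examined in a set of 8040 records that the authors deposited for mouse cortex. Records were joined when they held the same exact stretch of 100 nt on the deposited strand, directly or through another record, and every group with at least 4 records was kept. The 8040 records fell into 6413 groups, and 102 groups with 478 records (5.95% of all records) held 4 or more. A further 2279 records lay in groups of 2 or 3, and 5283 records joined no other. The kept groups held 4 records in 62 cases, 5 in 22, 6 in 10, 7 in 5, 8 in 2 and 9 in 1.

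Cortex RNA was sequenced from wild type C57BL/6 mice in 6 libraries, 3 from control mice and 3 from mice killed 24 h after subarachnoid haemorrhage (SAH) made by endovascular perforation. Each library pooled the lysates of 3 mice. The mice were adult males, and by the methods of the study the controls were operated on without perforation, whereas the labels call them normal. The methods of the study name the tissue as cortex. Perforation causes arterial bleeding into the space around the brain, and the study saw no blood clots there in control mice. The deposited records carry no value for any library, so control and SAH cannot be compared from them, no tissue marker can be checked in them and the depth behind each record is unknown.

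Long non-coding RNAs are transcripts that are not known to be translated, and many are spliced like mRNAs. A single locus can give several isoforms, which share some exons and differ in their start, their end or the exons and introns that are kept. Short sequencing reads have to be put together into transcripts by an assembler, and a transcript of low coverage can come out as separate pieces. The energy deposited with each record is the predicted free energy of its folded structure, and a lower (more negative) energy means a more stable predicted fold.

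The records were found to differ from one another mostly by position along 1 common sequence, and only a minority had the unlike ends or internal segments by which isoforms are usually told apart. For this reason they are called joined groups here and not isoforms. The most frequent arrangement is shown by 2 records of the largest group, where the last 150 bases of TCONS_00034882 were the first 150 bases of TCONS_00038841 (capitals) and each record went on alone on its own side (lower case).
TCONS_00034882, bases 1556 to 1745: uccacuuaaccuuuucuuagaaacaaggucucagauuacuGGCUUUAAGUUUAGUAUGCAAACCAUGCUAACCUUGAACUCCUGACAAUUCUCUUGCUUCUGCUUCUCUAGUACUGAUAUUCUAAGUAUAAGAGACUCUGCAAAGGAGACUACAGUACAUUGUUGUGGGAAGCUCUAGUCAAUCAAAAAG
TCONS_00038841, bases 1 to 190: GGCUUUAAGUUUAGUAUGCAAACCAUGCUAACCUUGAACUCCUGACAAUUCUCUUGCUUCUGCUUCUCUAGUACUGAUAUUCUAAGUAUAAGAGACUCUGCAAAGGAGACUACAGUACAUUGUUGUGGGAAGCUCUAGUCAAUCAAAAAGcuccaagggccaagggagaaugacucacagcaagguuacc

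The second arrangement is a segment that 1 record holds and another lacks between bases that both share. The next lines show 5 such pairs, chosen so that each kind of segment end is seen, with the segment in capitals and the 15 bases on either side in lower case. The first 2 segments start with GU and end with AG, the letters that bound most introns when read on the transcribed strand. The following 2 start with CU and end with AC, which are the same letters read on the complement, and the last has neither.
TCONS_00128771 with 120 nt: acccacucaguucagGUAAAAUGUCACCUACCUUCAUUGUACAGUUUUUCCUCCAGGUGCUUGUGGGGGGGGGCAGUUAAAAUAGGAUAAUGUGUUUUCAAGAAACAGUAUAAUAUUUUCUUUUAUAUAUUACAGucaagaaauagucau
TCONS_00131309 without it: acccacucaguucagucaagaaauagucau
TCONS_00237695 with 117 nt: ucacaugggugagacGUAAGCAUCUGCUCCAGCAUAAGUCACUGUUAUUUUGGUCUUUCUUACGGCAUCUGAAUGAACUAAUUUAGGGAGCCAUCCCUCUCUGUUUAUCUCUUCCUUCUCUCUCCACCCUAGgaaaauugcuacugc
TCONS_00237694 without it: ucacaugggugagacgaaaauugcuacugc
TCONS_00058415 with 211 nt: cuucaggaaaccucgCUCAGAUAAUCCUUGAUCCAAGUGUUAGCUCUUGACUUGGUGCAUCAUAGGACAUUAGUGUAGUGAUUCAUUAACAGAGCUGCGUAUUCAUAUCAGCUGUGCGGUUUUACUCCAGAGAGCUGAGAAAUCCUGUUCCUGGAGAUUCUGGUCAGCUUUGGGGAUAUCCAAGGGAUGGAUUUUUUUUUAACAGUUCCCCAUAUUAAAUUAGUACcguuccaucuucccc
TCONS_00057635 without it: cuucaggaaaccucgcguuccaucuucccc
TCONS_00148660 with 266 nt: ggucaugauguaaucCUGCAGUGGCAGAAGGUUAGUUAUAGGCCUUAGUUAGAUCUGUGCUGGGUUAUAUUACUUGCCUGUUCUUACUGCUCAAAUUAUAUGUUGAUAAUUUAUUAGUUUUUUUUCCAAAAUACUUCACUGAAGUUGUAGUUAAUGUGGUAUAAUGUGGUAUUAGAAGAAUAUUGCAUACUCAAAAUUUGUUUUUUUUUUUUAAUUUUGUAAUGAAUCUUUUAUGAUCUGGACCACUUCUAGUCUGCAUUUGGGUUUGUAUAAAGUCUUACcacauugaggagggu
TCONS_00149338 without it: ggucaugauguaauccacauugaggagggu
TCONS_00013023 with 128 nt: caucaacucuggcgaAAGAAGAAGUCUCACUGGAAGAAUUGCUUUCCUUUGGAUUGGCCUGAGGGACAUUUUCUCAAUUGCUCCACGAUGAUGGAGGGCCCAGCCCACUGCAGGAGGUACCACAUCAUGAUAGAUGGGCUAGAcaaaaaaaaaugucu
TCONS_00005198 without it: caucaacucuggcgacaaaaaaaaaugucu

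In 9 pairs 2 records shared sequence on both sides of bases that were unlike in each. The pair shown had a single unlike block, in which TCONS_00236593 held 160 nt and TCONS_00237910 held 210 nt at the same place (capitals).
TCONS_00236593, bases 730 to 949: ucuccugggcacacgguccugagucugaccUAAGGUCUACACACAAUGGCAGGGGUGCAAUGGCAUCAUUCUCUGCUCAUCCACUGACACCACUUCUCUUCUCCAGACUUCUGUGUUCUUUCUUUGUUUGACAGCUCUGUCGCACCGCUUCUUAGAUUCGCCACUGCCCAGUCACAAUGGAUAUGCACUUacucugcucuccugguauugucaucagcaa
TCONS_00237910, bases 560 to 829: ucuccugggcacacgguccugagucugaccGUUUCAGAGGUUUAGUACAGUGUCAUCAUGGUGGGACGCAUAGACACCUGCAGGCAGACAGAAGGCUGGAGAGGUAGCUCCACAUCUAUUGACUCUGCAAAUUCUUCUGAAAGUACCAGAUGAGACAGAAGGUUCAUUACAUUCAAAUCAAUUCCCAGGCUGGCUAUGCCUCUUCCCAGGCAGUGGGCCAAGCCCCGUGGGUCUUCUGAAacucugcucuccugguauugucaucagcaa

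Of the 939 pairs of records inside the groups, 564 (60.1%) shared at least 1 stretch of 100 nt themselves, and the other 375 were joined only through further records. Among the 564 linked pairs, 397 (70.4%) were staggered, meaning that the end of 1 record overlapped the start of the other, and 36 (6.38%) were nested, meaning that 1 record lay whole inside the other. Another 101 pairs (17.9%) shared a stretch but went on into unlike sequence at a start or an end. An internal segment in 1 record only was found in 21 pairs (3.72%), and in 9 pairs (1.60%) the shared sequence differed inside. Thus 433 of the 564 pairs differed by extent alone.

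Starts and ends were rarely the same. In 6 linked pairs (1.06%) both records started at the same base, and in 6 pairs (1.06%) both ended at the same base. All 6 pairs with the same start were of records with consecutive identifier numbers. Some pairs with the same end were too, for example TCONS_00103883 and TCONS_00103884. In 487 pairs the start of 1 record lay inside the other record, and in 71 pairs the records started in unlike sequence. Likewise, the end of 1 record lay inside the other in 493 pairs, and the ends were unlike in 65 pairs. The signal AAUAAA, which commonly precedes the cleavage site of polyadenylated transcripts, was in the last 50 bases of 15 of the 478 records (3.14%) and of 313 of all 8040 records (3.89%). Read on the complement, as UUUAUU in the first 50 bases, it was found in 13 of these records (2.72%) and in 291 of all records (3.62%).

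By these pairs, 76 groups with 351 records held overlaps only, 23 groups with 111 records were branched by an unlike end or an internal segment, and 3 groups with 16 records held shared sequence that differed inside. The groups with overlaps only could be laid out along 1 joined sequence. The largest group, led by TCONS_00033522, held 9 records that covered 7127 nt as a chain in which no base lay in more than 2 records. Its 8 linked pairs were all staggered, with shared lengths from 150 to 1006 nt. The group led by TCONS_00127953 held 7 records, and that led by TCONS_00128106 held 5 records over 5235 nt.

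**Figure D1:**
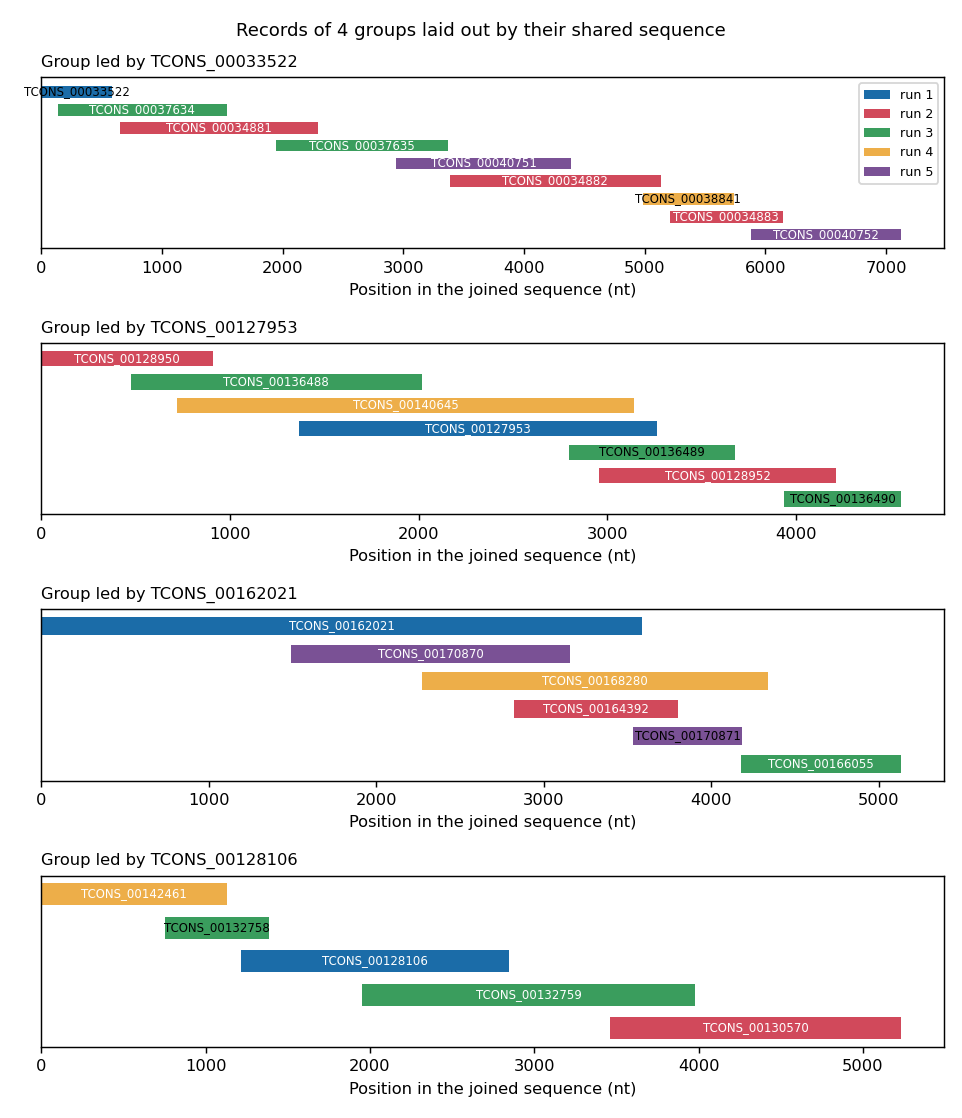
Records of 4 groups as bars along the joined sequence, with position in nt on the horizontal axis and colour for the run of near identifier numbers to which a record belongs. The 9 records of the group led by TCONS_00033522 follow each other over 7127 nt, and bars of 1 colour do not overlap. Only groups that could be laid out are shown, which left out every group with an overlap within a run, so no conclusion is drawn from this.

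The amount of sequence shared was moderate. A linked pair shared a median of 61.7% of its shorter record, and the longest exact stretch had a median of 631 nt and ranged from 102 to 4677 nt. The groups covered a median of 3861.5 distinct nt, from 1329 to 16263 nt, and the 478 records held 1.69 times as many bases as their distinct sequence. Only 16 groups had any base common to every record, and 86 had none. A base was called private when no 50-nt stretch with it was found in another record of its group. The median record was private in 17.2% of its bases, 127 records had no private base, and 109 records were private in at least 50% of their bases. Shared bases had a GC content of 40.3% and private bases one of 39.6%. In 98 groups with at least 200 bases of each kind, the shared bases were the richer in GC in 57.

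The group led by TCONS_00101030 had the largest share of bases common to every record, 605 of 1494 distinct nt (40.5%). It was followed by the groups led by TCONS_00177404 with 25.2% and by TCONS_00061814 with 20.7%. In all 3 of these groups every pair was linked, and all 3 were branched. The records of a group also differed in length, with a median ratio of 2.34 between the longest and the shortest record. The ratio was highest for the group led by TCONS_00107512, from 510 nt in TCONS_00112572 to 8137 nt in TCONS_00111055. In the groups led by TCONS_00127913 and TCONS_00005198 it was 9.96 and 9.11.

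The shortest of the 478 records was TCONS_00250932, with 290 nt. All but its last 3 bases (lower case) were found unbroken in TCONS_00251403, which had 421 further bases before them.
TCONS_00250932, whole record: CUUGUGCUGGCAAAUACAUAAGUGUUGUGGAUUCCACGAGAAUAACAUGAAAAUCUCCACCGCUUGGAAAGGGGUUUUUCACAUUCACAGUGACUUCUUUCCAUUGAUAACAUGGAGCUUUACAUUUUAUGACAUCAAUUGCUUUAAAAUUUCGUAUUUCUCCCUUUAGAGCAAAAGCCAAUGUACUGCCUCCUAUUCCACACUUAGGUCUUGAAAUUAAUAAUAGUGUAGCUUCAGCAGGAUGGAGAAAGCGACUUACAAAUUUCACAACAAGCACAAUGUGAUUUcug

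The identifier numbers of joined records lay in separate runs. In 0 of the 102 groups were all numbers consecutive. Of the 376 steps from one number to the next inside a group, 71 (18.9%) were a step of 1 and 11 were steps of 2 to 24. None lay between 25 and 148, and the other 294 ranged from 149 to 9702 with a median of 1896. Over all records in number order, 16.8% of the steps were a step of 1. A run was defined as numbers at most 50 apart. There were 2 runs in 2 groups, 3 in 30, 4 in 50, 5 in 18 and 6 in 2 groups. The largest number of runs in any of the 1130 joined groups of 2 or more records was 6, and 6 libraries had been sequenced. A group cannot have more runs than records. Only the 5 groups of 7 records, the 2 of 8 and the 1 of 9 could have had more than 6 runs. For all other groups this limit was set by size, so no conclusion is drawn from it. The library from which a record came is not given, so a link between runs and libraries was not tested. The widest spread was 14355 numbers, in the group led by TCONS_00128106, followed by 13628 for TCONS_00157769 and 13080 for TCONS_00128771.

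**Figure D2:**
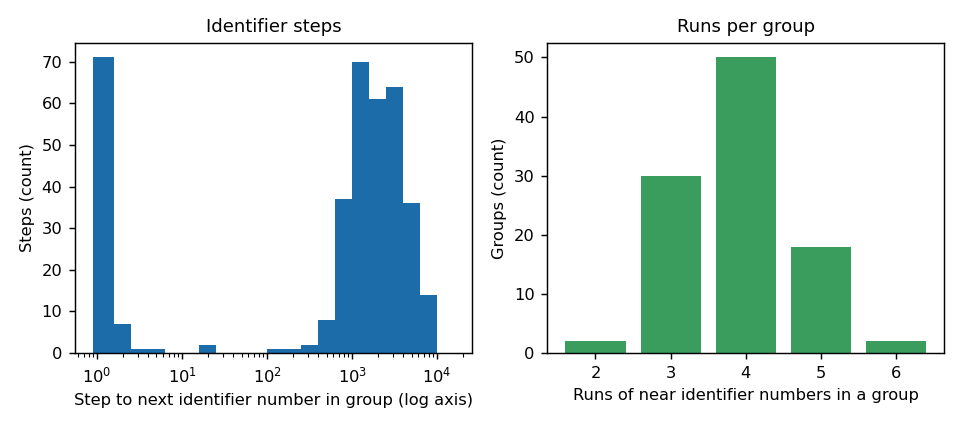
Left, the step from each identifier number to the next in its group (log axis) against the count of steps, and right, the number of runs in a group against the count of groups. Steps of 1 to 24 and steps of 149 or more stand apart, and 50 of 102 groups had 4 runs.

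Pairs within a run differed in kind from pairs of unlike runs. Of the 89 pairs within a run, 13 (14.6%) were linked, against 551 of 850 pairs of unlike runs (64.8%). Of the 13 linked pairs within a run, 12 had unlike sequence: 7 had an unlike start or end, 4 had an internal segment and 1 differed inside. All linked pairs that started at the same base were among these 13. Of the 551 linked pairs of unlike runs, 432 were staggered or nested and 119 (21.6%) had unlike sequence. These pairs share records, so the shares are given as a description. In the groups laid out along a joined sequence there were 70 pairs within a run. All 70 stood in the order of their numbers and none overlapped, with gaps of 57 to 7457 nt and a median gap of 301.5 nt. The groups of the 13 linked pairs within a run could not be laid out, because they were branched or differed inside. Pairs that did overlap were thus left out beforehand, and no conclusion is drawn from the lack of overlap. In 4 cases a group ran beside another, with records of both within 5 numbers of each other, as for the groups led by TCONS_00107512 and TCONS_00107519.

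**Figure D3:**
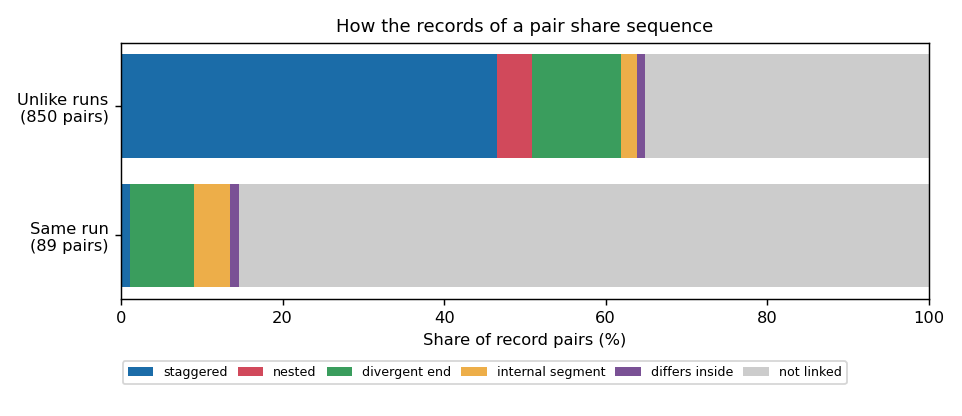
Share of record pairs (%) by how they share sequence, for the 89 pairs within a run and the 850 pairs of unlike runs. Staggered overlaps make up 396 of the 850 pairs of unlike runs and 1 of the 89 pairs within a run.

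The distinct internal segments numbered 12 in 9 groups and were 33 to 1463 nt long, with a median of 180 nt. They include 2 overlapping segments of TCONS_00177404, at bases 248 to 673 and 323 to 673, each absent from another record. Of the 12, 2 had the ends GU and AG, 4 had CU and AC, and 6 had neither. Ends were read at every placement that gave the same sequences. Over windows of the same length in all 8040 records, 0.770% to 3.87% had either pair of ends at as many placements. Places where an end or a start parted were counted if both records had at least 20 nt of unlike sequence there. Pairs whose shared sequence differed inside were left out. At the 52 distinct places so counted, the next 2 bases were GU in 7 and CU in 6 of 26 places on the 3′ side. On the 5′ side the last 2 bases before the shared sequence were AC in 12 and AG in 0 of 26. In all records, GU made up 5.32%, CU 7.27%, AC 5.44% and AG 7.36% of neighbouring bases, and the letters here could come from either record of a pair.

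The longest segment, 1463 nt with CU and AC at its ends, was in TCONS_00131544 and absent from TCONS_00129046. These records and TCONS_00131545 were also the only ones of the 478 that matched a RefSeq promoter window over at least 100 nt. They matched the window of Gm30591 on the complement of the deposited strand, for an exact 131, 222 and 132 nt in TCONS_00129046, TCONS_00131544 and TCONS_00131545. The window runs from 250 bases before to 50 after the start of the gene, at chr2:174937426-174937725 of GRCm38.p6 on the minus strand. The bases matched by all 3 records are in capitals, at positions 79 to 209 of the window.
Gm30591, RefSeq promoter window: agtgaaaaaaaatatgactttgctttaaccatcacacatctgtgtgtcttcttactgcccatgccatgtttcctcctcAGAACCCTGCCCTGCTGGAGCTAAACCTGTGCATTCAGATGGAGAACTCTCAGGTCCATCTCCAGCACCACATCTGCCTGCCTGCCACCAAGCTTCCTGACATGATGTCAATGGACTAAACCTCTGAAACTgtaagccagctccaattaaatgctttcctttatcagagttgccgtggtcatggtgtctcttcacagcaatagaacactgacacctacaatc
The match of TCONS_00131544 went on to position 300, the end of the window. In the other 2 records it stopped at position 209, just before gtaag. In 9 other groups, 11 further records matched a promoter window for 50 to 80 nt. Many of these matches were not to a single gene: of all 14 matching records 5 matched the window of 1 gene only, TCONS_00019590 matched those of 10 genes, and TCONS_00131544 matched those of 3.

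Of all 8040 records 296 (3.68%) matched one of the 32851 promoter windows for at least 50 nt on either strand, as did 14 (2.93%) of these 478. None of the 1005 RefSeq miRNA hairpins was found whole in any record.

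The longest reading frame, counted in codons from AUG to a stop on the deposited strand, was not of the same length throughout any of the 102 groups. The range within a group had a median of 32 codons, from 1 to 75, and was at least 20 codons in 76 groups. No record of the set had 100 codons, and the longest frame of these 478 records had 98. The authors kept only transcripts without coding potential, so this limit may come from their selection, which was not tested. In 134 linked pairs (23.8%) both records had the same longest frame, and in 430 they did not. Of these 430, the longer frame lay outside the shared sequence in 303 and crossed its border in 117. In 9 pairs the unlike frames were of equal length, and in 1 pair all bases of the longer frame were shared but not as an unbroken stretch. Counted by record, the longest frame was whole in another record of the group for 303 records and in none for 175. The longest record also had the longest frame in 62 groups.

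The widest range, 13 to 88 codons, was in the group led by TCONS_00234204. TCONS_00235061 and TCONS_00239239 shared a frame of 88 codons, which is shown with its start and stop codon in capitals, TCONS_00240913 had 47 codons, and TCONS_00234204 had 13. Of the 267 nt of that frame, TCONS_00234204 held the last 87 and not the start codon.
TCONS_00239239, bases 598 to 864: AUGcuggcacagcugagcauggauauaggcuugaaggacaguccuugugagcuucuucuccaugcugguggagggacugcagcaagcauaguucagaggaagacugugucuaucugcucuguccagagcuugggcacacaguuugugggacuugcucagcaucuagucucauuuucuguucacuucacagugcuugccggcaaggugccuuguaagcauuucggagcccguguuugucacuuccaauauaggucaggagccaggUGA
In the groups led by TCONS_00088145 and TCONS_00128115 the range was 29 to 98 and 31 to 97 codons.

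The longest frame of a record lay inside an internal segment for 2 of the 12 segments. TCONS_00075138 had 60 codons, and the 183 nt of its frame lay whole inside a segment of 514 nt that TCONS_00077226 lacked. TCONS_00081216 and TCONS_00081365 shared the frame of 60 codons, whereas the longest frame of TCONS_00077226 had 9 codons and that of TCONS_00073994 had 7.
TCONS_00075138, bases 306 to 488: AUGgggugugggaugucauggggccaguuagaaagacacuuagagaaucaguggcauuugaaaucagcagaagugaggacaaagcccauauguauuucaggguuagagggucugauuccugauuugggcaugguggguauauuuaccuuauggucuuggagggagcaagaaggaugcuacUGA
TCONS_00077226, bases 66 to 95: AUGacucaucuucagucagccucagccUGA
In the other case, the 65 codons of TCONS_00131544 lay inside its segment of 1463 nt, and TCONS_00129046 had a frame of 78 codons elsewhere. The segments of 120 and 117 nt shown above left the longest frame the same in both records, at 90 and 68 codons. Some segments held part of the longest frame. The segments of 426 and 351 nt in TCONS_00177404 held 89 and 14 of its 231 nt. The segment of 33 nt in TCONS_00120183 held 1 of 129 nt.

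On the complement of the deposited strand, 31 of the 478 records (6.49%) had a frame of at least 100 codons from AUG to a stop, against 7.46% of all records. These lay in 20 groups, and in 0 groups did every record have one. When a frame could also run on to the end of the record, 43 of the 478 records had at least 100 codons. The share over all records was not computed for such frames, so this count has no background to be set against. In 1 group every record had such a frame. This was the group led by TCONS_00101030. Here the complement gave 313 codons up to a stop in TCONS_00103884 and 176 in TCONS_00103013, and 396, 351 and 177 codons open to the end of the record in TCONS_00103883, TCONS_00101030 and TCONS_00105256. On the deposited strand, for which the limit of under 100 codons held in all records, the 5 records had 55 to 60 codons.

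TCONS_00103883 and TCONS_00103884, which have consecutive numbers, shared 923 nt to their common end and parted at the start. The lines show where they parted, with the shared bases in capitals. The stop codon that closed the frame of TCONS_00103884 lay on the complement of its bases 26 to 28, before the shared part that began at base 53, and no stop closed the same frame in the 275 bases that TCONS_00103883 had there.
TCONS_00103883, bases 216 to 305: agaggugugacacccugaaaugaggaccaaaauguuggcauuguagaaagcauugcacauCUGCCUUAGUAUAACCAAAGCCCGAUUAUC
TCONS_00103884, bases 1 to 82: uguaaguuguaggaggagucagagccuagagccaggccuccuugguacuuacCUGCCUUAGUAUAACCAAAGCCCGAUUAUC
The group led by TCONS_00248277, with 8 records in 6 runs, held frames on the complement that ran open to the end for 396 codons in TCONS_00248277, 300 in TCONS_00250933 and 219 in TCONS_00249706. Its longest frames on the deposited strand had 34 to 51 codons.

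The deposited energy followed length in nearly all groups. The longest record had the lowest energy in 93 of the 102 groups, and the longer record had the lower energy in 536 of the 564 linked pairs and in all 36 nested pairs. These are energies of whole records, to which each further stem adds, so the counts are largely set by length. A record that holds another whole can form all its base pairs, so the result for nested pairs was fixed in advance. Per 100 nt, the energy of the records of a group spanned a median of 4.05 kcal/mol, from 1.15 to 10.5 kcal/mol. The widest span was in the group led by TCONS_00162021, where TCONS_00170870 had -32.9 and TCONS_00166055 had -22.4 kcal/mol per 100 nt. The GC content of these records was 45.1% and 38.9%. In the groups led by TCONS_00234534 and TCONS_00128876 the span was 8.83 and 8.15 kcal/mol per 100 nt. The difference in energy per 100 nt went with the difference in GC content over the 564 linked pairs (Pearson r = -0.70, given without a test because pairs share records and sequence).

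**Figure D4:**
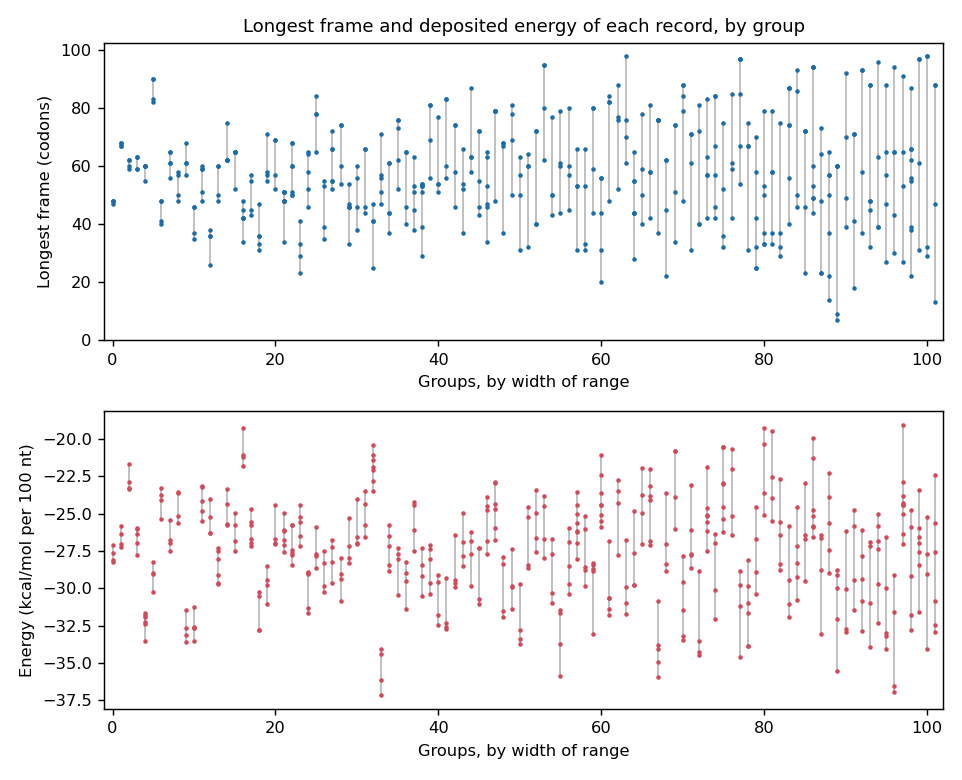
Longest frame in codons (top) and deposited energy in kcal/mol per 100 nt (bottom) of each record as a point, with a line from the lowest to the highest record of each of the 102 groups, ordered by the width of the range. The frame range grows from 1 to 75 codons and the energy range from 1.15 to 10.5 kcal/mol per 100 nt.

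The predicted pairing of shared sequence was often different in 2 records. Base pairs kept were the pairs with both bases in the shared sequence that both structures had, as a share of the mean number in either. A linked pair kept a median of 48.7% (quartiles 28.6% and 67.1%, 563 pairs with such base pairs). All were kept in 1 pair of records and none in 24. Where records shared under 25% of the shorter record the median was 27.0% (61 pairs), and it was 45.4% for 25 to 50% (143 pairs), 49.2% for 50 to 75% (195 pairs) and 57.2% for 75% or more (164 pairs). By kind, the median was 62.6% for nested pairs, 52.0% for pairs with unlike ends, 47.7% for staggered pairs, 44.0% for pairs with an internal segment and 24.9% for the 9 pairs that differed inside. A median of 11.9% of the shared bases were paired with a base outside the shared sequence. The 2 records TCONS_00237694 and TCONS_00237695, with a segment of 117 nt, kept 84.1%, and 100% of the shorter record was shared. TCONS_00148660 and TCONS_00149338, with a segment of 266 nt, kept 12.3%. Their segment began at base 121 of TCONS_00148660, and its place in TCONS_00149338 lay within bases 852 to 881. These 2 records thus also differed before the segment. The pairs differ in more than their segments, and an effect of the segment was not tested.

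**Figure D5:**
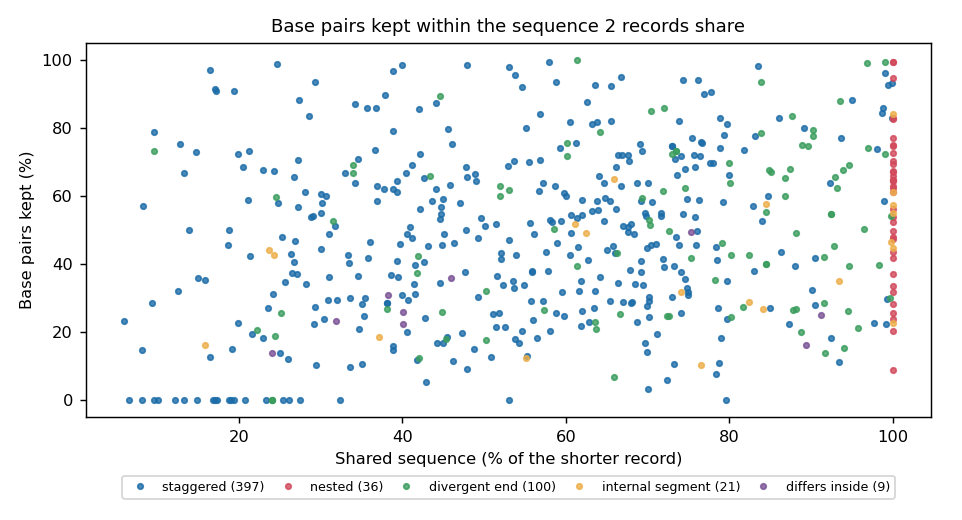
Base pairs kept within shared sequence (%) against the shared sequence as a share of the shorter record (%), with 1 point for each linked pair and colour for the kind of pair. The points spread widely at every share, and the median rises from 27.0% under a share of 25% to 57.2% at 75% or more.

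Within the 3 groups whose shared sequence differed inside, the differences were of unlike sizes. In the group led by TCONS_00208133, 4 pairs had 19 to 25 unlike blocks, of up to 384 nt. In the group led by TCONS_00209782, 4 pairs had 1 to 8 unlike blocks, and in TCONS_00209782 and TCONS_00209788 it was a single base in 221 shared nt. In the group led by TCONS_00236593 the 1 block shown above was the only one. Whether the records of these groups come from 1 locus was not tested.

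Compared with the rest of the set, the joined records were longer, with a median of 1361.5 nt against 1235 nt in groups of 2 or 3 and 1055 nt in records that joined no other. The rule favours long records, which hold more stretches of 100 nt, so no test is given. Their median GC content was 40.3%, against 41.2% and 41.9%, and their median energy was -27.3 kcal/mol per 100 nt, against -27.8 and -28.0. Their longest frame had a median of 57 codons, against 53 and 51. As a share of record length the order was reversed, with a median of 11.97% against 12.42% and 13.96%. A median of 59.1% of their bases were paired, against 59.0% and 58.8%. At the border of the rule, 90 nt in place of 100 gave 103 groups with 488 records, and 110 nt gave 101 groups with 472 records. Of the 102 groups, 98 had the same members at 90 nt and the other 4 gained records, and 99 had the same members at 110 nt. Another 223 groups just outside the rule held 3 records.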

How the data were processed

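The deposited data are 1 table of new lncRNA records over all 6 libraries, each with an identifier, an RNA sequence, a structure in dot-bracket form and an energy. The authors removed ribosomal RNA, labelled 1 cDNA strand with dUTP, aligned paired-end reads with TopHat2 (mm10, from the submitters' processing notes) and kept transcripts over 200 bp without coding potential or a match to an annotated mRNA or lncRNA. The assembler and folding program are not given in the sources used here.

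Records were joined by exact stretches of 100 nt. Linked pairs were compared by a collinear chain of exact matches of at least 25 nt. Internal segments had at least 20 nt, and frames ran from AUG to a stop. The deposited energies equalled those of RNAeval (ViennaRNA 2.7.2, Turner parameters of 1999, dangling-end setting 1) for all 478 records. Promoter and hairpin sequences are from RefSeq (GRCm38.p6). No genome was used, so no record was placed. Python 3.11.15, numpy 2.4.6 and matplotlib 3.10.9 were used, and the scripts were tested on simulated records.

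Records are not replicates, so values are descriptions with no test, and no test of control against SAH was run. Joined groups and named examples were chosen with earlier results of these data known. Named groups had the most records, the widest ranges of frame, energy or length, the longest internal segments, the widest identifier spread, the largest common share or a promoter match. The sequences printed, the pairs within a run and the frames on the complement were chosen after their values were seen. Groups with no common base tied and are not listed.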

Additional observations from a re-analysis of the deposited data

How the results depend on the processing

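Of 76 recomputed values, 65 stayed within 1.5 times (counts), the 95% Wilson interval (shares) or 1 SD over records, pairs or groups (medians), and 11 moved. Of the 65, 5 still differed by over 1.5 times: the private share was 28.7% in groups of 3 or more and 11.1% in groups of 5 or more, ends within 10 nt were the same in 1.95% of pairs, and the base pairs kept by joining at 50 nt and the energy span after a fit on GC content are given below. Joining by 50 nt gave 871 records in 109 groups, with the same start in 0.318% and the same end in 0.239% of pairs, a median private share of 44.9% and 30.0% of base pairs kept. Joining only records whose numbers were at most 50 apart gave 0 groups and 0 records of 4 or more. Groups of 3 or more were 325 with 1147 records, and groups of 5 or more were 40 with 230 records. Starts within 10 nt were called the same in 4.08% of pairs. The cause of these changes was not tested beyond the change of rule itself. Joining by 200 nt gave 88 groups with 412 records, and a ban on stretches found in 10 or more records gave the same 102 and 478. After a linear fit on GC content the energy span had a median of 2.65 kcal/mol per 100 nt, and new folds kept 52.5% of base pairs. Leaving out the 3 groups that differ inside, chosen after seeing the data, gave 99 groups with 462 records. No paired analysis was possible because the records carry no library values. With no values per library, leaving out a replicate gives no other value, and no depth limits could be computed.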
